A study of Neurospora crassa OR74A with 2 samples.

Results

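The genes of nitrate use and ammonium assimilation in Neurospora crassa, a filamentous ascomycete, were followed in germlings with and without the transcription factor gene pp-1. The 10 genes were taken by locus identifier, out of 8564 genes listed for each library, and all 10 were found and carried the same symbols in the reference gene table. They are the regulators nit-2, nmr and nit-4, the nitrate transporter gene nit-10, the reductase genes nit-3 and nit-6, and the assimilation genes gln-1, gln-2, am and en(am)-2. The compared samples were 1 library of the Δpp-1 deletion strain and 1 library of the wild type FGSC 2489, both started from 1000000 conidia (asexual spores) per ml and grown for 5 h at 30 °C. PP-1 is a Ste12-type transcription factor. The sources used here do not give the growth medium, its nitrogen source or the number of cultures behind each library. With 1 library per strain no difference has a replicate check and no test was possible. Each value describes these 2 libraries.

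Fungi that use nitrate import it and reduce it first to nitrite and then to ammonium. Ammonium enters organic form as glutamate or as glutamine, and these supply nitrogen for the other amino acids and the nucleotides. In Neurospora the nitrate genes are repressed while ammonium or glutamine is plentiful. Without these, the GATA factor NIT2 activates genes for other nitrogen sources, and NIT4 adds the response to nitrate. NMR binds NIT2 and holds it inactive under repressing conditions.

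Levels are RPKM, the number of reads per kilobase of a gene for every 1000000 reads of its library. The deleted gene pp-1 (NCU00340) stood at 1.69 RPKM in Δpp-1 and at 83.8 RPKM in the wild type, the side its label calls for. The spacing of the lowest values put the library totals at 4681960 reads in Δpp-1 against 3935040 in the wild type, as low estimates. Differences are log2 folds of Δpp-1 over the wild type with 1 RPKM added to each value, which understates those of low genes. The 95% counting intervals are of the plain RPKM ratio and cover counting error only. The median log2 fold was -0.25 over the 6885 genes whose mean reached 1 RPKM, called all genes below, so the values are also set against it. In bulk RNA, fewer cells of a type and less RNA per cell cannot be told apart.

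The nitrate pathway and its global activator gene lay on opposite sides. The transporter and both reductase genes had higher values in Δpp-1, by 1.55-fold to 2.53-fold, while nit-2 had the lower value in Δpp-1, a ratio of 0.457. Among the assimilation genes, gln-2 had 2.56 times its wild-type level in Δpp-1, and am, the most abundant of the 10, had 0.537 of it. The other 4 genes had ratios from 0.709 to 0.919.

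**Figure D1:**
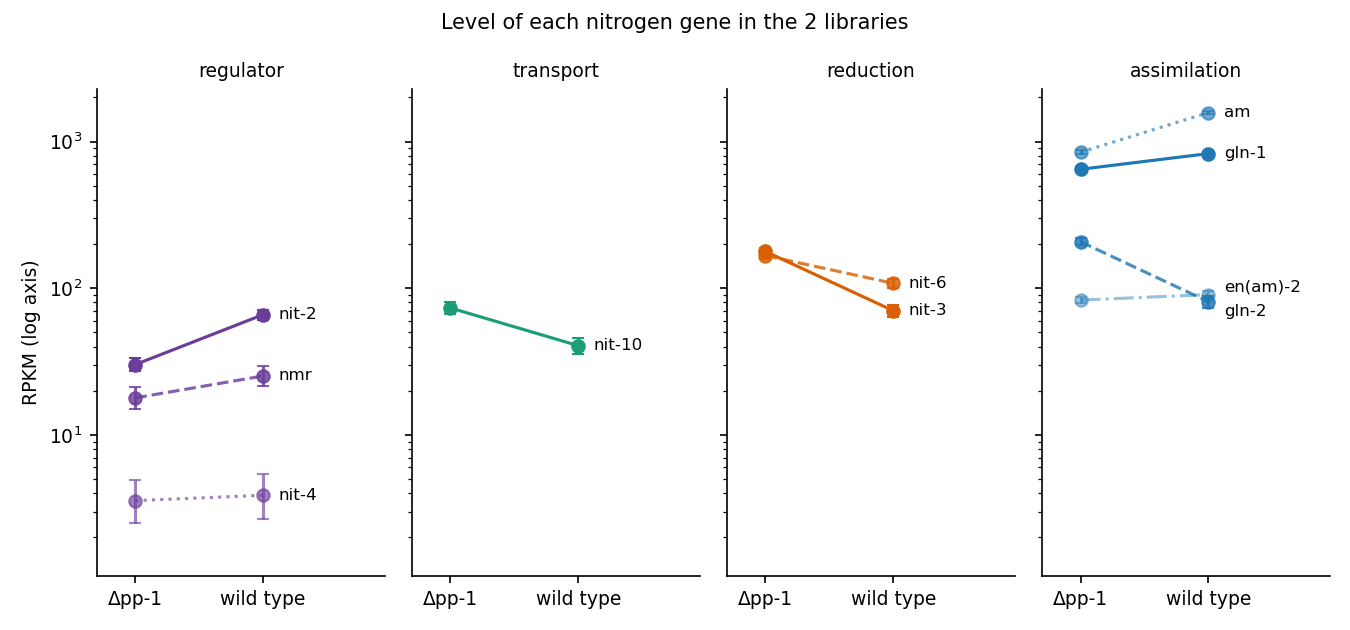
Level of each gene in RPKM (log axis) in the Δpp-1 library and the wild-type library, in 4 panels by role, where lines join the values of 1 gene and bars are 95% counting intervals. The lines of nit-10, nit-3, nit-6 and gln-2 run higher in Δpp-1, and those of the other 6 run lower, by the most for nit-2 and am.

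The regulators were compared first. The gene nit-2 (NCU09068), which encodes the GATA-type activator NIT2, stood at 30.2 RPKM in Δpp-1 and 66.1 RPKM in the wild type. It was the only 1 of the 10 with a log2 fold below -1 (-1.10), or -0.86 relative to all genes. The counting interval of its ratio ran from 0.401 to 0.520 and so held the 2-fold limit. With each library scaled by its median the log2 fold was -0.85 and no longer 2-fold.

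The gene nmr (NCU04158), whose product is the negative regulator that binds NIT2, stood at 17.9 RPKM in Δpp-1 and 25.2 RPKM in the wild type. Its log2 fold of -0.47 was 0.22 below that of all genes, and the interval of its ratio, 0.559 to 0.898, held the ratio of the median gene (0.828, over genes above 0 in both libraries). The gene nit-4 (NCU08294), which encodes the zinc cluster activator for nitrate, was the lowest of the 10, at 3.56 RPKM in Δpp-1 and 3.87 RPKM in the wild type. These values stand for about 73 and 67 reads, and the interval of the ratio, 0.560 to 1.51, held both 1 and the median gene. No difference of nit-4 was detectable at this depth, and the sign of its log2 fold (-0.10) turned to 0.11 with median scaling.

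Nitrate uptake and reduction had higher values in Δpp-1. The nitrate transporter gene nit-10 (NCU07205) stood at 73.3 RPKM in Δpp-1 and 40.6 RPKM in the wild type. Its log2 fold was 0.84, which is 1.09 above all genes, with a counting interval of the ratio from 1.54 to 2.12. It was thus under 2-fold in the values as deposited and over it with median scaling (1.09).

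The gene nit-3 (NCU05298), which encodes nitrate reductase, the enzyme of the first reduction step, stood at 178 RPKM in Δpp-1 and 70.3 RPKM in the wild type. Its log2 fold was 1.33 and the interval of its ratio ran from 2.27 to 2.83. The gene nit-6 (NCU04720), which encodes nitrite reductase, the enzyme of the second step, stood at 167 RPKM in Δpp-1 and 108 RPKM in the wild type, a log2 fold of 0.62. The interval of the nit-6 ratio, 1.42 to 1.68, did not overlap that of nit-3. Summed over the transporter and both reductase genes, the level was 418 RPKM in Δpp-1 and 219 RPKM in the wild type, 1.91-fold higher in Δpp-1.

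**Figure D2:**
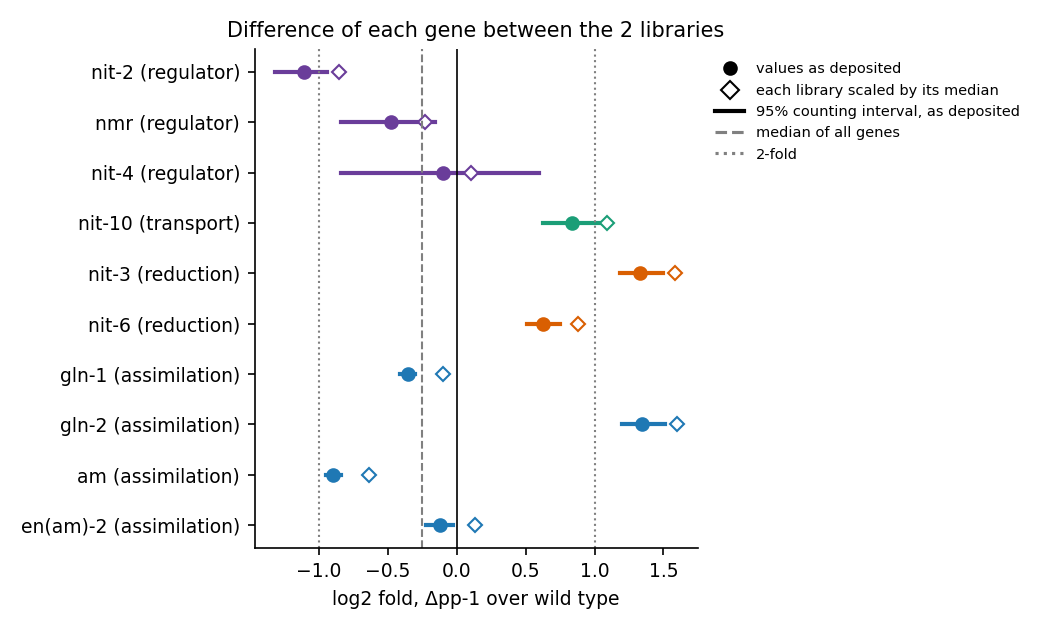
Log2 fold of Δpp-1 over the wild type for each gene, as deposited (filled circles, 1 RPKM added) and after scaling each library by its median (open diamonds). Horizontal bars are 95% counting intervals of the plain RPKM ratio, the dashed line is the median of all genes at -0.25 and dotted lines mark 2-fold. The genes nit-3 and gln-2 lie beyond 2-fold on the higher side on both scales, nit-10 only after scaling, and nit-2 on the lower side only as deposited.

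The 4 assimilation genes did not share a direction. The gene am (NCU01195) encodes the NADP-specific glutamate dehydrogenase, which joins ammonium to 2-oxoglutarate to make glutamate. It stood at 847 RPKM in Δpp-1 and 1576 RPKM in the wild type, with a log2 fold of -0.90, or -0.65 relative to all genes. The interval of its ratio was narrow, from 0.517 to 0.558. It was the most abundant of the 10 in both libraries, ranking 109 of 8564 genes in Δpp-1 against 95 in the wild type.

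Both gln genes encode glutamine synthetase, which makes glutamine from glutamate and ammonium. The major transcript, gln-1 (NCU06724), stood at 647 RPKM in Δpp-1 and 828 RPKM in the wild type, a log2 fold of -0.35. That is 0.10 below all genes, and its sign turned to 0.044 with both libraries scaled to a sum of 1000000. The minor transcript, gln-2 (NCU04856), stood at 207 RPKM in Δpp-1 and 81.0 RPKM in the wild type. Its log2 fold of 1.35 was the highest of the 10, with an interval of the ratio from 2.30 to 2.86. The share of gln-2 in the summed gln level was 24.3% in Δpp-1 against 8.91% in the wild type, while the sum itself was 855 RPKM in Δpp-1 and 909 RPKM in the wild type, a ratio of 0.940. The sources used here do not say how reads shared between the gln genes were counted.

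The gene en(am)-2 (NCU01744) encodes glutamate synthase, which makes glutamate from glutamine and 2-oxoglutarate. It stood at 83.0 RPKM in Δpp-1 and 90.5 RPKM in the wild type. The log2 fold was -0.12 as deposited and 0.13 with median scaling, so its direction depends on how the libraries are scaled.

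Ratios between genes of 1 library do not depend on how the libraries are scaled to each other, and gene length cancels when they are compared between strains. The ratio of nit-3 to nit-2 was 5.90 in Δpp-1 against 1.06 in the wild type, which differ by 5.55-fold (counting interval 4.69 to 6.56). This was the only pair taken across roles, and the others lie within a role. It joins a gene with one of the highest log2 folds (1.33) to the gene with the lowest (-1.10), so a wide gap follows from that choice. The ratio of nit-3 to nit-6 was 1.07 in Δpp-1 against 0.650 in the wild type. Among the regulators, nit-2 over its inhibitor gene nmr was 1.69 in Δpp-1 against 2.62 in the wild type, with a counting interval of the difference from 0.495-fold to 0.838-fold. The ratio of nmr to nit-4 was 5.02 in Δpp-1 against 6.51 in the wild type, a difference within counting error (0.458-fold to 1.30-fold).

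Within assimilation, gln-2 over gln-1 was 0.320 in Δpp-1 against 0.0978 in the wild type, a 3.28-fold difference with an interval from 2.93 to 3.67. The ratio of am to gln-2 was 4.08 in Δpp-1 against 19.5 in the wild type, the widest gap of the 6 assimilation pairs. The ratio of am to en(am)-2 was 10.2 in Δpp-1 against 17.4 in the wild type, and that of am to gln-1 was 1.31 in Δpp-1 against 1.90 in the wild type. The ratio of gln-1 to en(am)-2 was the most alike, at 7.80 in Δpp-1 against 9.15 in the wild type.

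**Figure D3:**
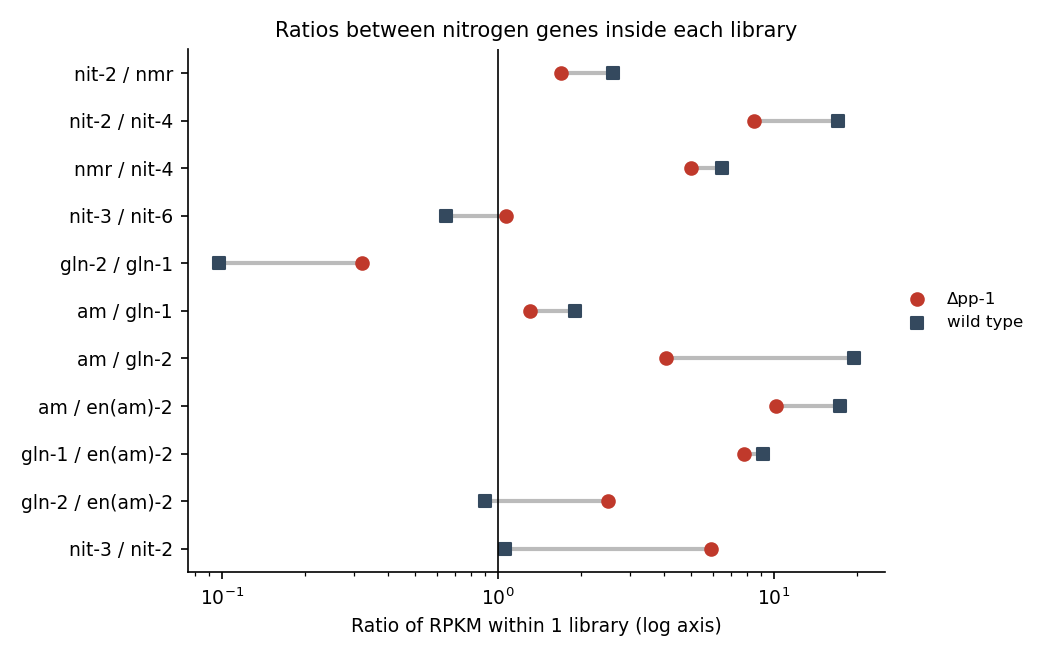
Ratio of RPKM between pairs of nitrogen genes inside the Δpp-1 library (circles) and inside the wild-type library (squares), on a log axis. The ratio of nit-3 to nit-2, the only pair taken across roles, is 5.90 in Δpp-1 against 1.06 in the wild type. That of gln-2 to gln-1 is 0.320 in Δpp-1 against 0.0978 in the wild type.

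The order of the 10 levels, which are per gene length, differed in its middle. In Δpp-1 the order was am, gln-1, gln-2, nit-3, nit-6, en(am)-2, nit-10, nit-2, nmr and nit-4. In the wild type it was am, gln-1, nit-6, en(am)-2, gln-2, nit-3, nit-2, nit-10, nmr and nit-4. Counting intervals of neighbours in the order overlapped for nit-3 with nit-6 and for en(am)-2 with nit-10 in Δpp-1, and along the run from en(am)-2 through gln-2 and nit-3 to nit-2 in the wild type. Ranked among all 8564 genes, nit-3 was at 346 in Δpp-1 against 1128 in the wild type, gln-2 at 311 in Δpp-1 against 956 in the wild type, and nit-10 at 916 in Δpp-1 against 1757 in the wild type. The regulator nit-2 was at 1955 in Δpp-1 against 1187 in the wild type. These ranks do not depend on the scaling either.

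Genes were counted by the size of the difference, with a limit of 2-fold, among those that reached 10 RPKM in either library. Of these 4831 genes, 132 (2.73%) passed the limit on the higher side in Δpp-1 and 337 (6.98%) on the lower side, and the lower side held 71.9% of the genes past it. After each library was scaled by its median, 210 (4.35%) were past it on the higher side and 219 (4.53%) on the lower side, which then held 51.0%. Of the 10 nitrogen genes, 9 passed the filter and nit-4 did not. As deposited, 2 of the 9 were higher (nit-3 and gln-2) and 1 was lower (nit-2). With median scaling 3 were higher (nit-3, gln-2 and nit-10) and 0 were lower. With 9 genes, the counts set beside these shares are small, and no test was made. Of the 4831 genes, 1.59% had a larger log2 fold than gln-2, 1.70% than nit-3, 3.60% than nit-10 and 5.67% than nit-6, and 8.61% had a smaller one than am and 5.67% than nit-2. Over all 10 genes the median log2 fold was -0.11, beside -0.25 for all genes, and 4 of 10 were above 0, against 29.4% of all genes.

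**Figure D4:**
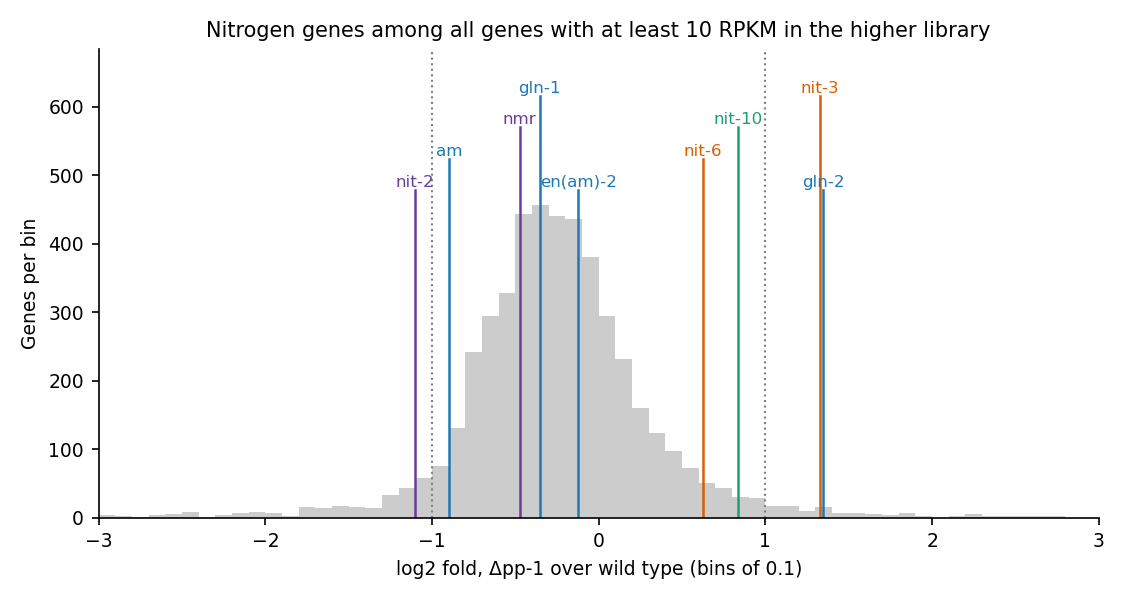
Number of genes per bin of log2 fold, Δpp-1 over the wild type, for genes that reached 10 RPKM in either library (grey), of which those beyond -3 or 3 are not drawn. Coloured lines mark the 9 nitrogen genes that passed this filter, with nit-3 and gln-2 beyond 2-fold on the higher side and nit-2 beyond it on the lower side.

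Related nitrogen genes were described from lists given by symbol. A symbol without a match was left out, so the lists are not complete. Of 25 symbols for using other nitrogen sources, 10 were matched and 8 passed the filter. Of these 8, 1 was at least 2-fold higher and 0 were lower, beside 2.73% and 6.98% of the 4831 genes that passed it. That gene was lao (NCU01066), which encodes an L-amino acid oxidase, an enzyme that frees ammonium from amino acids, at 28.8 RPKM in Δpp-1 against 10.0 RPKM in the wild type. Next above were alc-1 (allantoicase, of purine breakdown), with a log2 fold of 0.44, and xdh-1 (xanthine dehydrogenase), with 0.13. Of these, xdh-1 did not pass the filter, and the counting interval of its ratio, 0.793 to 1.56, held 1. The lowest were mtr (NCU06619), a permease gene for neutral amino acids, with an RPKM ratio of 0.499 that was just short of the limit once 1 RPKM had been added, then ota (ornithine transaminase) and aln-1 (allantoinase), both with log2 folds of -0.65. The catabolic glutamate dehydrogenase gene gdh-1 (NCU00461), which uses NAD and runs mainly toward ammonium, stood at 12.5 RPKM in Δpp-1 and 11.7 RPKM in the wild type. This gene was picked out with its value known. The list's median was -0.09, or 0.16 above all genes.

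Of 14 symbols for the synthesis of arginine, a nitrogen-rich product of assimilation, 10 were matched, and all 10 genes passed the filter. None was 2-fold higher or lower, beside 2.73% and 6.98% of the 4831 genes that passed it. Their log2 folds ran from -0.38 for arg-2, through -0.35 for arg-6 and -0.27 for arg-5, up to 0.15 for arg-4, 0.20 for arg-14 and 0.30 for arg-12, with a median of -0.019. Of the 3 genes of cross-pathway control, the response to amino acid shortage, 1 was at least 2-fold higher and 0 were lower. The shares over the 4831 genes were again 2.73% and 6.98%, and 3 genes are few to set beside them. The higher gene was cpc-3 (NCU01187), which encodes an eIF2 alpha kinase, at 29.4 RPKM in Δpp-1 and 13.8 RPKM in the wild type. The counting interval of its ratio, 1.78 to 2.58, held the 2-fold limit. The activator gene cpc-1 (NCU04050) had a log2 fold of -0.34 and cpc-2 (NCU05810), which encodes a ribosome-associated WD-repeat protein, one of -0.92. Of 6 symbols for asparagine and aspartate metabolism, 1 was matched, the asparagine synthetase gene asn-2 (NCU07300). It stood at 3.23 RPKM in Δpp-1 and 5.80 RPKM in the wild type. Molybdenum cofactor genes and ammonium transporters could not be matched by symbol and were not analysed here.

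Conidial markers differed between the same libraries. Of 11 such markers, 7 passed the filter, 4 were past 2-fold on the higher side in Δpp-1 and 0 on the lower side. Of the 4, con-6 and eas passed the filter only through Δpp-1, the library where they are higher, so the count is not independent of the filter. In the wild type they were at 8.78 and 9.55 RPKM. The shares over the 4831 genes that passed the filter were 2.73% and 6.98%. The summed level of the 11 markers was 462 RPKM in Δpp-1 and 196 RPKM in the wild type. The largest part of the Δpp-1 sum was al-1, at 187 RPKM in Δpp-1 against 41.1 RPKM in the wild type. In the same sums, al-3 was at 102 RPKM in Δpp-1 against 87.0 RPKM in the wild type, and al-2 at 22.5 RPKM against 15.2 RPKM. These al genes are of the carotenoid pathway, and they make up much of both sums. The conidiation regulator gene fl was at 2.65 RPKM in Δpp-1 against 2.83 RPKM in the wild type and did not pass the filter. The highest log2 folds were those of con-10 (2.56), al-1 (2.16) and con-6 (1.64), and the lowest those of acon-3 (-0.76), con-8 (-0.23) and ccg-1 (-0.11). In Δpp-1 and the wild type, acon-3 had about 7 and 17 reads and con-8 about 23 and 24, and neither passed the filter. The counting intervals of the ratios of acon-3 (0.0760 to 1.37), con-8 and ccg-1 all held 1. The marker con-13 was at 0.313 RPKM in Δpp-1 and listed at 0 in the wild type, and was picked out for this. The part of conidial material in the differences of nit-3, nit-10, nit-6, gln-2, nit-2 and am was not tested.

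**Figure D5:**
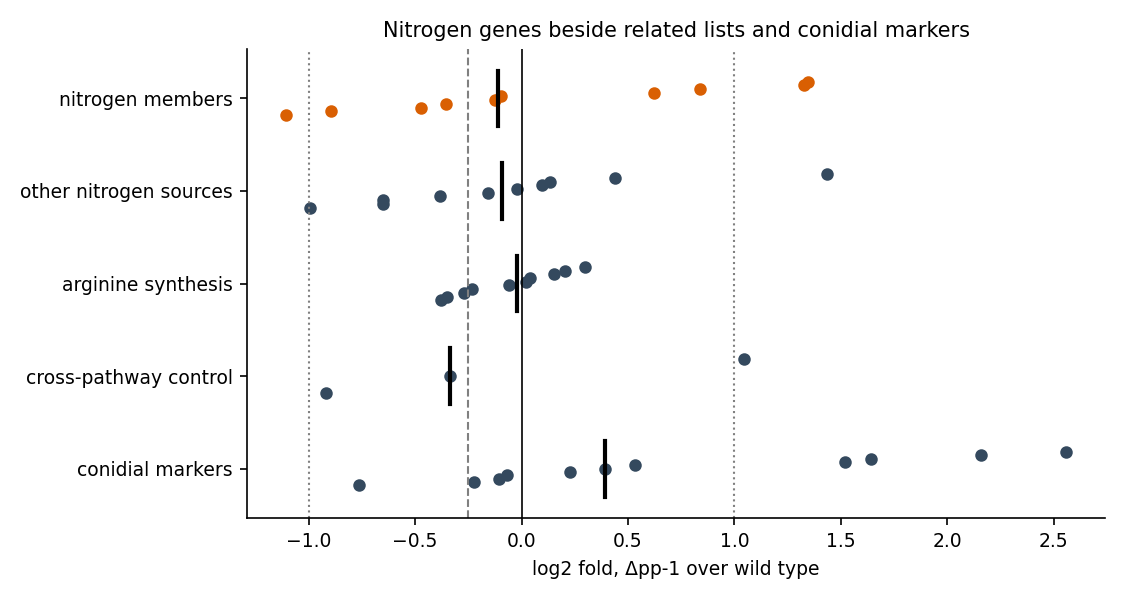
Log2 fold of Δpp-1 over the wild type for each gene (points) of the nitrogen genes and of related lists, with the list's median (black bar), all genes' median (dashed line) and 2-fold limits (dotted lines). The arginine genes lie between -0.38 and 0.30, while the nitrogen genes run from -1.10 to 1.35 and the conidial markers up to 2.56.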

How the data were processed

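RNA was extracted with Trizol, and oligo(dT)-selected mRNA was fragmented and made into cDNA with random primers, per the labels' protocols. The steps described do not mark strand. The submitters' processing notes name TopHat and Cufflinks without a version or a role. The genome build and the annotation are not given in the sources used here. The authors deposited 1 RPKM table per library, per the file headers. Each of 8564 genes was counted once, since 238 identifiers had repeated lines of equal value.

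Values were kept as deposited and analysed in Python 3.11.15 with pandas 2.3.3 and SciPy 1.17.1. The log2 fold used a pseudocount of 1 RPKM. Genes that reached 10 RPKM in either library were called at 2-fold. The calling was run on simulated data with counting error only and changes larger than 2-fold. Those data held no variation between cultures, so they do not check the calls made here at this limit. Symbols and gene spans came from RefSeq's NC12 gene table (8087 identifiers matched a current tag and 141 an older one). Its coordinates served only for spans, for which genes neighbour each other and for the gaps between these. No coordinate is printed, since the files' build is not known. One read was taken as the lowest value at which RPKM times span piled up, 0.214 in Δpp-1 against 0.254 in the wild type. Both libraries also had pile-ups at 1.5 times this value (11 genes in Δpp-1 against 11 in the wild type, against at most 2 and 1 beside it), so a read may be worth less and the totals are low estimates. Intervals (95%, Clopper-Pearson for the ratio of 1 gene, exact Poisson for levels, normal on the log scale for ratios of ratios) used 50% of the reads so obtained. PCR copies are not independent molecules.

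The 10 genes and all lists were chosen with earlier results of these data known. The genes named were all 10 members, pp-1, up to 3 of each list with the largest and 3 with the smallest log2 fold, and the genes beside each member that were past 2-fold. The genes con-13, al-2, al-3, eas, fl, gdh-1, nuo29.9, NCU05296, NCU04855, NCU04857, NCU11348 and NCU01742 were named outside this rule, with their values known. Alternatives were other pseudocounts, filters, folds and scalings of the libraries.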

Additional observations from a re-analysis of the deposited data

How the results depend on the processing

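No paired analysis was possible because there was 1 library per strain. This also left no replicate to leave out. Against 2 members higher and 1 lower in Δpp-1, the counts were 4 and 2 at 1.5-fold, 3 and 0 with median or upper-quartile scaling, and 4 and 0 at a library sum of 1000000, where nit-6 also passed. Other filters and pseudocounts left both counts as they were. Against 132 higher and 337 lower genes, the counts were 295 and 1125 at 1.5-fold, 67 and 179 with at least 30 RPKM, and 252 and 521 with no filter. They were 210 and 219 with median scaling, 205 and 222 with upper-quartile scaling, and 288 and 197 at a sum of 1000000. A pseudocount of 0.1 RPKM gave 141 and 371, and 1 of 5 RPKM gave 96 and 237. All 3 scalings raise the Δpp-1 values against those of the wild type. At a sum of 1000000 the median log2 fold was 0.26 for the members and 0.28 for other nitrogen sources. With median scaling, upper-quartile scaling and the sum, the medians were 0.24, 0.23 and 0.38 for arginine synthesis and -0.080, -0.087 and 0.061 for cross-pathway control. Of the 10 members, 7 kept the sign of the log2 fold under every scaling, and nit-4, gln-1 and en(am)-2 did not. Pseudocounts of 0.1 and 5 moved no member by more than its counting interval.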

Other observations

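The genes beside the 10 members in assembly NC12 were looked up. None of the 20 overlapped its member in that assembly. Of these neighbours, 17 had values and 12 passed the filter of 10 RPKM in the higher library. Of the 12, none was at least 2-fold higher and 2 were at least 2-fold lower, beside 2.73% and 6.98% of the 4831 genes that passed it. Both were the genes on either side of am. NCU01193 stood at 4.10 RPKM in Δpp-1 and 11.5 RPKM in the wild type, and NCU01196 at 5.81 RPKM in Δpp-1 and 19.7 RPKM in the wild type. Both passed the filter only through the wild type, the library where they are higher, so the count is not independent of the filter. No counting intervals were made for the neighbours. NCU01193 and NCU01196 were still past 2-fold with median scaling, at log2 folds of -1.08 and -1.37, where am itself was at -0.64. NCU01742, beside en(am)-2, was just short of the limit, with a log2 fold of -0.99 as deposited and -0.76 with median scaling. It stood at 7.08 RPKM in Δpp-1 and 15.1 RPKM in the wild type, and it too passed the filter only through the wild type. The measured neighbours of nit-3, the respiratory complex gene nuo29.9 and NCU05296, had log2 folds of -0.41 and -0.35, while nit-3 was at 1.33. Those of gln-2, NCU04855 and NCU04857, had log2 folds of -0.59 and -0.28, while gln-2 was at 1.35. The one measured neighbour of nit-10, NCU11348, was at -0.33. The gap between NCU11348 and nit-10 is 4 bp in that assembly. The sources used here do not say how reads at the border of such close genes were counted. These neighbours of nit-3, gln-2 and nit-10, and NCU01742, were named after their values were seen.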
